A study of Neurospora crassa with 8 samples.

Results

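The genes NCU09450 to NCU09495 of the filamentous fungus Neurospora crassa form a run of consecutive locus numbers that ends at a chromosome tip. Members were chosen by locus number, and 43 of the 46 numbers in the range have an entry among the 9730 genes of the authors' table. The range itself was chosen on earlier results of the ∆pas comparison described here, in which the marker genes NCU09495 (set-6) and NCU09491 had stood out. Differences between the ∆pas-labelled libraries and wild type (WT) are therefore given as a description of these genes and not as independent evidence about them. The label of a single chromosome end did not hold for the whole range. By the gene order of the NC12 assembly in RefSeq, 34 of the 43 genes lie at the right end of chromosome II, where set-6 is the outermost gene of the table (rank 1) and NCU09461 has rank 35. The other 9, NCU09450 to NCU09460, lie on chromosome VII at ranks 63 to 72 from its left end, and are described as a separate stretch.

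Polycomb repressive complex 2 (PRC2) places methyl groups on lysine 27 of histone H3, a mark of silent genes that in this fungus is known to cover regions next to the telomeres. The catalytic subunit is encoded by set-7, and the series names pas (NCU04278) as an accessory subunit. The outermost gene set-6 encodes a protein with a SET domain, the fold known from lysine methyltransferases. Genes under the mark are usually read at low levels in growing mycelium, and loss of the mark can raise some of them.

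Poly-A RNA was sequenced from 2 strains labelled ∆pas, both mating type a with the marker nat-1 in place of pas, and from 2 WT strains, of which replicate 1 is mating type A and replicate 2 mating type a. Each strain gave 1 library, and all were shaken for 16 hours at 32 °C in minimal medium with sucrose. The tissue label is germinated conidia, while the protocol speaks of mycelia. The 4 ChIP libraries of ∆pas and ∆npf strains were not analysed here, so no methylation value stands beside the expression values. Values for ∆set-7, the deletion of the catalytic subunit, come only from the authors' deposited comparison.

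Reads in genes numbered 14679872 and 13679487 in the ∆pas-labelled libraries, and 7139105 and 10997599 in WT. The authors divided the reads by 1 factor per library, and 3 reads, the upper limit that a count of 0 allows, equal 2.35 and 2.58 normalized counts in the ∆pas-labelled libraries and 4.84 and 3.10 in WT. Reads outside any annotated feature made up 13.9% and 6.76% in ∆pas replicates 1 and 2, against 5.41% and 15.2% in WT replicates 1 and 2, a split that crosses the groups. The deleted gene pas itself had 43.1 and 98.1 normalized counts in ∆pas replicates 1 and 2, against 119 and 95.1 in WT replicates 1 and 2. These groups overlap, and the log2 fold change was -0.70 ± 0.416 (SE), at a limma adjusted p of 0.371. Since the counts do not show the loss of pas, the mutant libraries are named by their label, as ∆pas-labelled libraries, and each direction below rests on that label.

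Differences were taken on log2(normalized count + 1) with a limma fit over all 8219 genes whose mean reached 5 normalized counts, and p-values were adjusted over all of them; a gene is called at an adjusted p under 0.05. Because the range was picked with this comparison in view, the adjusted p of a gene says where it stands among all genes and is no separate support. Of the 43 genes, 36 passed this filter. Among them 2 were called higher in the ∆pas-labelled libraries and 0 lower, where 0.280% of all tested genes were called higher and 0.0852% lower. At an unadjusted p under 0.05, 8 of the 36 were higher and 5 lower (22.2% and 13.9%), against 10.2% and 11.1% of all tested genes. DESeq2 on the recovered reads called 4 of them higher and 2 lower, against 3.28% and 4.39% of all genes to which it gave an adjusted p. Both libraries labelled ∆pas lay above both WT libraries for 13 of the 36 genes and below both for 9. These shares were 36.1% and 25.0%, against 29.5% and 26.5% over all tested genes. In bulk RNA, fewer cells that express a gene and less RNA per cell cannot be told apart.

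The highest fold changes stood at ranks 1, 4 and 5 from the end of chromosome II. The outermost gene, set-6, had 411 and 441 normalized counts in the ∆pas-labelled libraries, against 53.3 and 39.3 in WT. Every library labelled ∆pas was well above both WT libraries, and the reads behind these values were 524 and 513 in the ∆pas-labelled libraries and 33 and 38 in WT. The mean was 426 ± 21.4 in the ∆pas-labelled libraries and 46.3 ± 9.89 in WT (SD, n = 2 each), a ratio of 9.21, and the log2 fold change was 3.19 ± 0.242 (SE), at a limma adjusted p of 0.0114.

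At rank 4, NCU09491 had 113 and 80.9 normalized counts in the ∆pas-labelled libraries, against 6.46 and 6.20 in WT. Its WT values came from only 4 and 6 reads, close to the 3 reads that a count of 0 allows. Means of 96.9 ± 22.7 in the ∆pas-labelled libraries and 6.33 ± 0.180 in WT (SD, n = 2 each) gave a ratio of 15.3 and a log2 fold change of 3.72 ± 0.376 (SE), at a limma adjusted p of 0.0280. NCU09490, at rank 5, had 56.5 and 74.8 normalized counts in the ∆pas-labelled libraries, against 8.07 and 8.27 in WT. The groups do not overlap and the ratio of means was 8.04, but the log2 fold change of 2.85 ± 0.379 (SE) missed the threshold in limma (adjusted p = 0.0533) and passed it in DESeq2 (adjusted p = 0.000292).

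Between these genes lay 2 with smaller fold changes. NCU09494, at rank 2, had 47.1 and 36.1 normalized counts in the ∆pas-labelled libraries, against 27.4 and 19.6 in WT, which do not overlap. Its log2 fold change was 0.80 ± 0.369 (SE), at a limma adjusted p of 0.274. NCU09492, at rank 3, had 1379 and 1739 normalized counts in the ∆pas-labelled libraries, against 1323 and 1381 in WT. These overlap, unlike the values of its neighbours on either side. The log2 fold change of NCU09492 was 0.20 ± 0.172 (SE), at a limma adjusted p of 0.543.

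**Figure D1:**
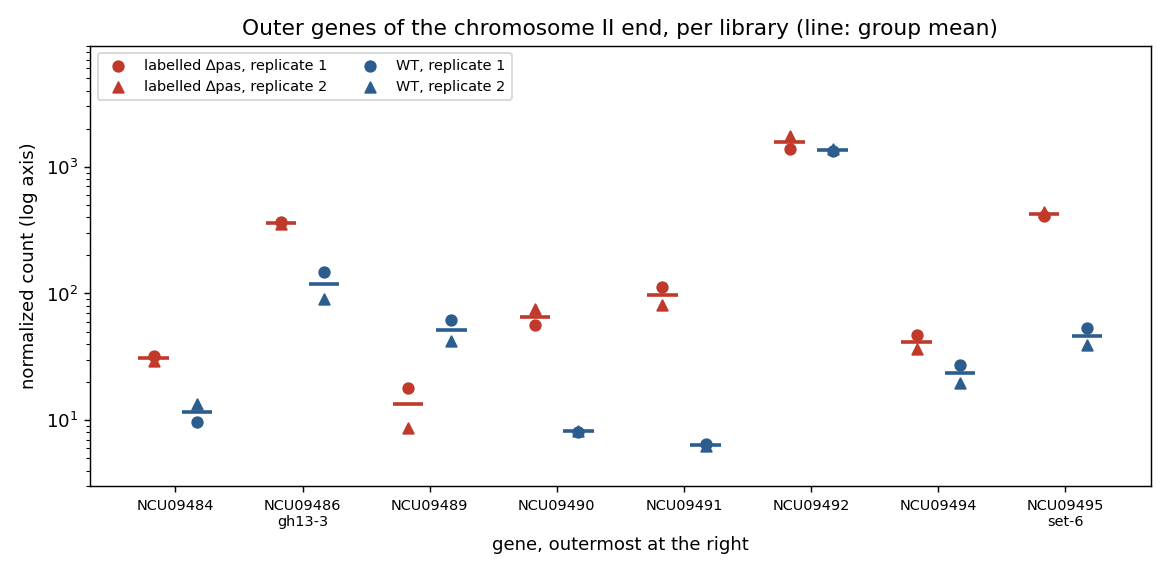
Normalized counts (log axis) of 8 outer genes of the chromosome II end in each library, with the outermost gene at the right; points are libraries and lines are group means. The ∆pas-labelled points lie far above the WT points for set-6, NCU09491 and NCU09490, near them for NCU09492, and below them for NCU09489.

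Rank 6 is NCU11088, whose number lies outside the range. The next stretch inward, ranks 7 to 14, held genes that differed in either direction, and limma called 0 of them. Of the 7 tested, 2 were higher and 2 lower at an unadjusted p under 0.05 (28.6% each), against 10.2% and 11.1% of all tested genes, and DESeq2 called 1 higher and 1 lower. The gene gh13-3 (NCU09486), at rank 10, belongs by its name to glycoside hydrolase family 13, known for enzymes that act on starch and related sugars. It had 369 and 356 normalized counts in the ∆pas-labelled libraries, against 147 and 89.9 in WT. The groups do not overlap, with a ratio of means of 3.06 and a log2 fold change of 1.65 ± 0.274 (SE), at a limma adjusted p of 0.0653 and a DESeq2 adjusted p of 9.33e-05. NCU09484, at rank 12, had 32.2 and 29.2 normalized counts in the ∆pas-labelled libraries, against 9.68 and 13.4 in WT, and a log2 fold change of 1.35 ± 0.412 (SE), at a limma adjusted p of 0.145.

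Lower values stood directly beside these. NCU09489, at rank 7, had 18.0 and 8.60 normalized counts in the ∆pas-labelled libraries, against 61.3 and 42.4 in WT. Both libraries labelled ∆pas were below both WT libraries, with a log2 fold change of -1.94 ± 0.471 (SE) that missed the threshold in limma (adjusted p = 0.0970) and passed it in DESeq2 (adjusted p = 0.0325). NCU09488, at rank 8, had 114 and 68.0 normalized counts in the ∆pas-labelled libraries, against 163 and 134 in WT, and a log2 fold change of -0.74 ± 0.311 (SE), at a limma adjusted p of 0.237. NCU09485 had 1781 and 1426 normalized counts in the ∆pas-labelled libraries, against 2447 and 2111 in WT, again without overlap, and a log2 fold change of -0.51 ± 0.177 (SE), at a limma adjusted p of 0.180. NCU09483, at rank 13, had 2350 and 2219 in the ∆pas-labelled libraries, against 2009 and 1638 in WT, and NCU09482, at rank 14, had 1146 and 1118 in the ∆pas-labelled libraries, against 1588 and 1172 in WT. Their log2 fold changes were 0.33 and -0.27, and neither pair of groups overlaps. NCU09487, at rank 9, had 11 and 4 reads in the ∆pas-labelled libraries and 0 and 3 in WT, too few to be tested.

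**Figure D2:**
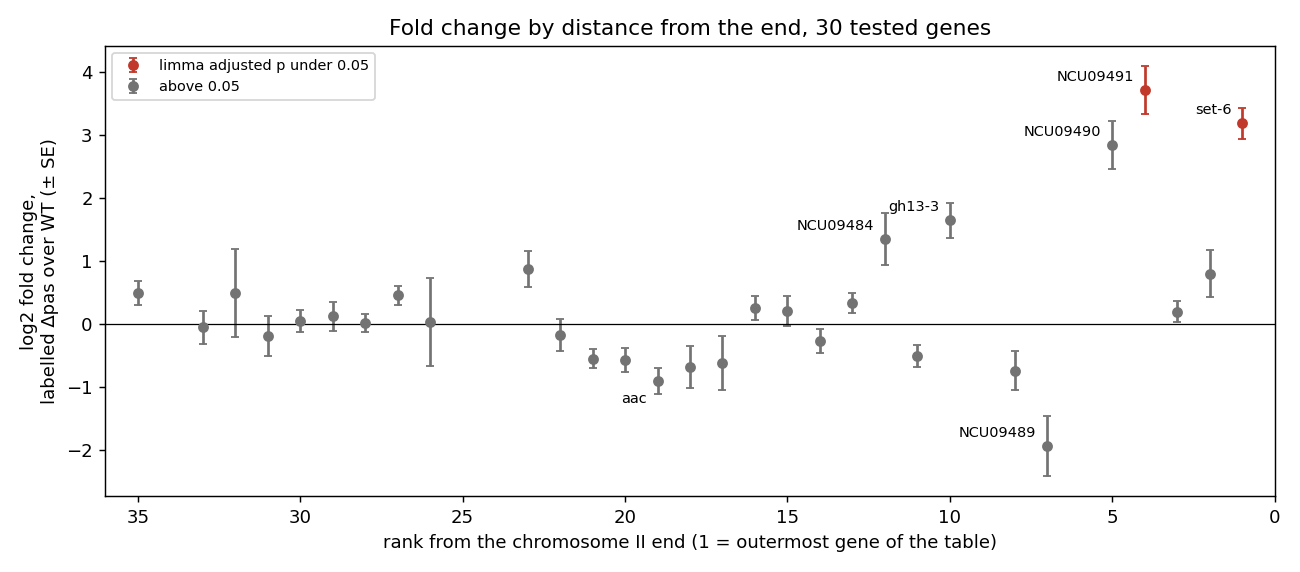
Log2 fold change of the ∆pas-labelled libraries over WT (± SE, from limma) for the 30 tested genes of chromosome II, by rank from the end; red marks the genes with an adjusted p under 0.05. The highest values, 3.72, 3.19 and 2.85, lie within the outermost 5 ranks, and from rank 15 inward every value lies between -0.91 and 0.88.

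Further inward, ranks 15 to 35 hold 21 of the genes, of which 18 were tested. Their log2 fold changes ran from -0.91 to 0.88 with a median of 0.02, and limma called 0 of them. Of the 18, 3 were higher and 3 lower at an unadjusted p under 0.05 (16.7% each), against 10.2% and 11.1% of all tested genes, and DESeq2 called 0 higher and 1 lower. NCU09473, at rank 23, had the highest value of this stretch, with 504 and 542 normalized counts in the ∆pas-labelled libraries, against 378 and 213 in WT (log2 fold change 0.88 ± 0.287, SE; limma adjusted p = 0.163). The tubulin gene tba-2 (NCU09468), whose product is an alpha subunit of microtubules, had 6003 and 6666 normalized counts in the ∆pas-labelled libraries, against 6196 and 6333 in WT. Its log2 fold change was 0.01 ± 0.145 (SE), and the values of the groups overlap. For leu-6 (NCU09463), which encodes a leucyl-tRNA synthetase, the values were 1517 and 2553 in the ∆pas-labelled libraries, against 1871 and 2233 in WT, and the log2 fold change was -0.05 ± 0.263 (SE). NCU09469, next to tba-2, had 2069 and 2107 normalized counts in the ∆pas-labelled libraries, against 1404 and 1650 in WT. These do not overlap, and the log2 fold change was 0.46 (limma adjusted p = 0.175). NCU09461, the innermost gene, had 268 and 267 in the ∆pas-labelled libraries, against 199 and 180 in WT, again without overlap (log2 fold change 0.50, limma adjusted p = 0.204). NCU09464, NCU09465, NCU09466, NCU09467, NCU09470, NCU09474, NCU09480 and NCU09481 had log2 fold changes between -0.19 and 0.50. The lowest limma adjusted p among these was 0.491, for NCU09480. NCU09470 rests on 6 and 20 reads in the ∆pas-labelled libraries and 6 and 8 in WT, and NCU09464 on 16 and 5 in the ∆pas-labelled libraries and 3 and 5 in WT, so little can be seen for them at this depth.

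A run of 5 neighbours, NCU09475 to NCU09479 at ranks 21 to 17, had lower values in both libraries labelled ∆pas than in both WT libraries; it was singled out after its values were seen. The best known of them is aac (NCU09477), which encodes the mitochondrial carrier that exchanges ADP for ATP. It had 23563 and 16675 normalized counts in the ∆pas-labelled libraries, against 37334 and 37371 in WT. The log2 fold change of -0.91 ± 0.206 (SE) missed the threshold in limma (adjusted p = 0.0883) and passed it in DESeq2 (adjusted p = 0.00460). NCU09475 had 12017 and 11605 normalized counts in the ∆pas-labelled libraries, against 18539 and 16142 in WT. NCU09476 had 14638 and 10929 in the ∆pas-labelled libraries, against 19528 and 18096 in WT. The remaining pair also had no overlap between the groups. NCU09478 had 49.4 and 38.7 in the ∆pas-labelled libraries, against 88.8 and 56.8 in WT, with a log2 fold change of -0.69 ± 0.338 (SE), at a limma adjusted p of 0.298. NCU09479 had 14.9 and 16.3 in the ∆pas-labelled libraries, against 19.4 and 31.0 in WT, with a log2 fold change of -0.62 ± 0.429 (SE), at a limma adjusted p of 0.441. Log2 fold changes over the 5 genes ran from -0.91 to -0.55. Of the 5, 3 (60%) were lower at an unadjusted limma p under 0.05, against 11.1% of all tested genes. Both libraries labelled ∆pas lay below both WT libraries for 26.5% of all tested genes. Since the run was singled out on its values, these shares are a description only.

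**Figure D3:**
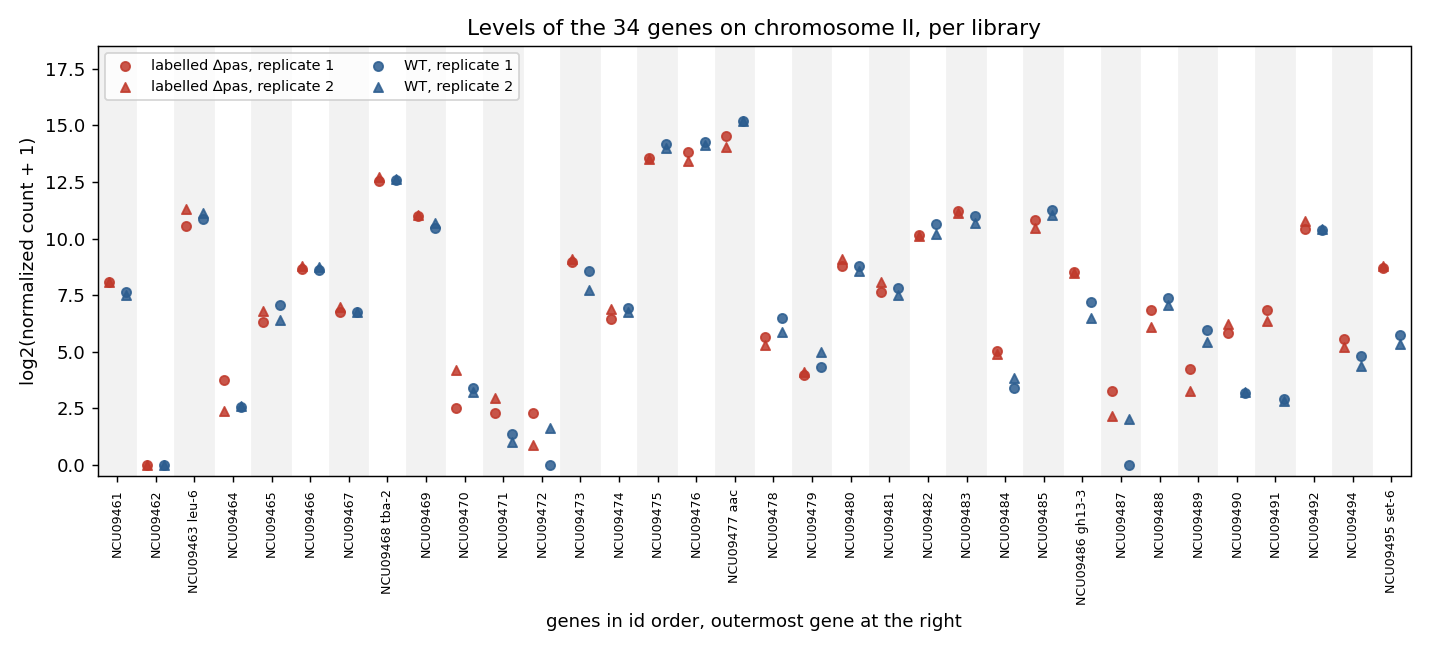
Log2(normalized count + 1) of the 34 genes of chromosome II in each library, in order of locus number with set-6 at the right; red points are the ∆pas-labelled libraries and blue points WT. Counts are not scaled for gene length, so heights compare libraries and not genes; NCU09462 is at 0 in every library, and the red and blue points part most at NCU09490, NCU09491 and set-6.

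Of the 43 genes, 7 did not pass the filter on low values. NCU09452, NCU09453 and NCU09462 had no read in any of the 4 libraries, mutant or WT. In NC12, NCU09462 overlaps its neighbour NCU09461. NCU09455 had 0 and 1 reads in the ∆pas-labelled libraries and 2 and 1 in WT. NCU09472 had 5 and 1 reads in the ∆pas-labelled libraries and 0 and 2 in WT, and NCU09471 had 5 and 8 in the ∆pas-labelled libraries and 1 and 1 in WT. For NCU09471 both ∆pas-labelled libraries lay above both WT libraries, with a ratio of means of 4.08. For NCU09455 they lay below both. These values rest on few reads, and the genes were not tested in the main limma fit, so little can be said of a difference at this depth. Altogether 11 of the 43 genes overlap another gene of the table in NC12, among them NCU09484 with NCU09483, NCU09475 with NCU09474 and NCU09489 with NCU11088. A summary entry of the deposited table holds ambiguous reads, 1.85% and 2.02% of the total in the ∆pas-labelled libraries and 2.05% and 1.78% in WT. Whether counting used strand is not given in the sources used here, and values of overlapping genes are uncertain.

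On chromosome VII, far from its end, 6 of the 9 genes were tested, with log2 fold changes from -0.06 to 0.57. Limma and DESeq2 called 0 of them, and 0 had an unadjusted limma p under 0.05. Over all tested genes limma called 0.280% higher and 0.0852% lower, and 10.2% and 11.1% passed unadjusted. DESeq2 called 3.28% and 4.39% of all genes to which it gave an adjusted p. At such shares, 0 of 6 genes says little about this stretch. The gene rpn-2 (NCU09450), a subunit of the regulatory cap of the proteasome, had 2426 and 2156 normalized counts in the ∆pas-labelled libraries, against 2397 and 2342 in WT. The gene nuo20.1 (NCU09460), named for a subunit of respiratory complex I, had 2452 and 2464 in the ∆pas-labelled libraries, against 2429 and 2646 in WT. For both genes the groups overlap, and their log2 fold changes were -0.05 and -0.04. NCU09451 had 72.1 and 53.3 in the ∆pas-labelled libraries, against 69.4 and 59.9 in WT, and NCU09459 had 15.7 and 10.3 in the ∆pas-labelled libraries, against 21.0 and 6.20 in WT. NCU09458 and NCU09456 had the highest fold changes of this stretch. NCU09458 had 177 and 275 in the ∆pas-labelled libraries, against 166 and 145 in WT, with a log2 fold change of 0.51 ± 0.269 (SE), at a limma adjusted p of 0.327. NCU09456 had 21 and 14 reads in the ∆pas-labelled libraries, against 5 and 10 in WT, with a log2 fold change of 0.57 ± 0.493 (SE), at a limma adjusted p of 0.534.

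Medians over tested genes are given without a test, with rank groups set after the values were seen. The median log2 fold change was 2.85 at ranks 1 to 5, -0.27 over the 7 tested genes of ranks 7 to 14 and 0.02 at ranks 15 to 35, against 0.03 over all tested genes. The median of ranks 7 to 14 lies between genes that differ in opposite directions, from -1.94 to 1.65, and does not describe single genes there. By locus number it was 0.13 for NCU09450 to NCU09464, -0.17 for NCU09465 to NCU09479 and 0.29 for NCU09480 to NCU09495. The 36 tested genes together had a median of 0.08. Set against the WT mean, the median of the 36 was 0.02 and 0.16 in ∆pas replicates 1 and 2, against 0.09 and -0.09 in WT replicates 1 and 2; these values overlap. The next 43 genes inward on chromosome II had 37 tested genes with a median of 0.18. Limma called 0 of them, with 3 higher and 3 lower at an unadjusted p under 0.05 (8.11% each), against 10.2% and 11.1% of all tested genes, and DESeq2 called 1 higher and 2 lower. In another locus range, the genes NCU09580 to NCU09634 had 32 tested genes with a median of 0.54. Limma called 4 of them higher (12.5%) and 0 lower, against 0.280% and 0.0852% of all tested genes. At an unadjusted p under 0.05, 16 were higher (50%) and 0 lower, against 10.2% and 11.1%. DESeq2 called 12 higher and 0 lower, against 3.28% and 4.39% of all genes to which it gave an adjusted p. No test of the difference was made.

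The genes just beyond the range differed less than set-6, but NCU09754 had a higher fold change than any tested gene of ranks 15 to 35 (highest 0.88). NCU09449, next to NCU09450, had 695 and 791 normalized counts in the ∆pas-labelled libraries, against 775 and 739 in WT. NCU09496, the next number after set-6, lies on chromosome III and had 3603 and 4169 in the ∆pas-labelled libraries, against 2855 and 3467 in WT. NCU09754, next inward of NCU09461, had 1164 and 1496 in the ∆pas-labelled libraries, against 612 and 797 in WT, with a log2 fold change of 0.92 (limma adjusted p = 0.0903).

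The share of reads outside features was alike in ∆pas replicate 2 and WT replicate 1, and in ∆pas replicate 1 and WT replicate 2, and its part in the differences was not tested. For set-6 the log2 difference was 3.03 between ∆pas replicate 2 and WT replicate 1, and 3.35 between ∆pas replicate 1 and WT replicate 2. For NCU09491 these differences were 3.46 and 3.98, for NCU09490 3.06 and 2.63, for gh13-3 1.27 and 2.02, and for NCU09489 -2.70 and -1.19. The groups of these 5 genes do not overlap, which fixes the sign within any pair, so only the sizes are of use here. For NCU09492, whose groups overlap, the differences were 0.39 and -0.0023. With WT replicate 1 left out, set-6 and NCU09491 kept log2 fold changes of 3.41 and 3.75, but neither was called (limma adjusted p = 0.107 and 0.259). With WT replicate 2 left out the values were 2.98 and 3.70 (limma adjusted p = 0.201 and 0.269), while both stayed called without either of the ∆pas-labelled libraries. Set-6 also lost its call without the intensity trend (limma adjusted p = 0.0593).

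The authors' own comparisons gave smaller differences for the outermost genes. In the authors' deposited ∆pas table, set-6 had a log2 fold change of 1.03 ± 0.535 (SE) at an adjusted p of 0.485 and NCU09491 one of 0.75 ± 0.571 (SE) at an adjusted p of 0.691. In the same deposited table NCU09490 had 1.40 ± 0.486 (SE) at an adjusted p of 0.150, so none of these 3 genes passed there. The authors' deposited table gave 1 of the 33 genes here that have an adjusted p as higher and 0 as lower, against 0.796% and 0.392% of all its genes. That gene was gh13-3, with 1.52 ± 0.227 (SE) at an adjusted p of 1.79e-08, close to the 1.65 found in the 4 libraries. The mean count that the authors' deposited table gives for set-6 was 407, and the mean of the 4 libraries here was 236; for NCU09491 these means were 77.2 and 51.6. Other libraries thus entered the authors' fit. The design text names published WT and ∆set-7 data, and the part of these libraries in the smaller differences was not tested. The low WT levels of set-6 and NCU09491 given above hold for the WT libraries of this series only. Their levels in the other WT libraries were not examined, so the ratios to WT may differ there. Whether the authors' tool shrinks fold changes is not stated in the sources used here. In the same deposited table the SE was 0.294 for NCU09452, at a mean count of 0.205. For NCU09491 the SE was 0.571 at a mean count of 77.2. An SE that is smaller near a count of 0 is a trait of shrunken fold changes. The sizes in the authors' tables and in the limma fit may therefore not be on the same scale, which was not tested.

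For ∆set-7 the authors' deposited table gave 4 of the 39 genes that have an adjusted p as higher and 0 as lower, against 2.31% and 3.00% of all its genes. All 4 lie within the outermost 12 ranks of chromosome II. In the authors' deposited table for ∆set-7, set-6 had a log2 fold change of 1.73 ± 0.535 (SE) at an adjusted p of 0.0288 and NCU09490 one of 1.70 ± 0.488 (SE) at an adjusted p of 0.0144. The same deposited table gave NCU09484 1.31 ± 0.411 (SE) at an adjusted p of 0.0332 and gh13-3 1.12 ± 0.232 (SE) at an adjusted p of 0.000114. NCU09491 had 0.98 ± 0.571 (SE) at an adjusted p of 0.356 and NCU09494 had 1.01 ± 0.380 (SE) at an adjusted p of 0.0999 in the authors' deposited table, short of the threshold. NCU09492, the gene between them, had -0.23 ± 0.149 (SE) at an adjusted p of 0.428 in the authors' deposited ∆set-7 table. From rank 15 inward, and on chromosome VII, the authors' deposited ∆set-7 table called 0 genes. The ∆pas and ∆set-7 comparisons share WT libraries, so likeness between them is not independent.

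**Figure D4:**
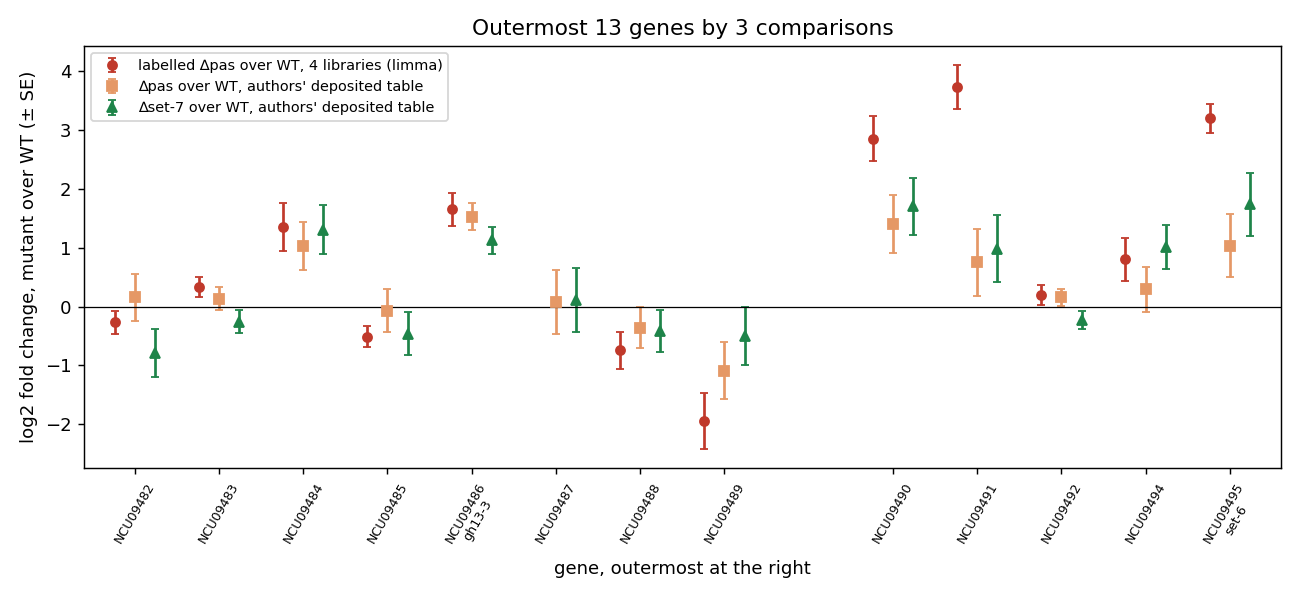
Log2 fold change of mutant over WT (± SE) for the outermost 13 genes of chromosome II in 3 comparisons: the ∆pas-labelled libraries in the limma fit (red), ∆pas in the authors' deposited table (orange) and ∆set-7 in the authors' deposited table (green). At gh13-3 the values lie at 1.65, 1.52 and 1.12, while at set-6 they lie at 3.19, 1.03 and 1.73. The limma fit and the authors' tables may not be on the same scale, since it is not stated whether the authors' fold changes were shrunken. NCU09487 has no limma value.

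Limma called 0 of the 5 genes in a list of PRC2 components, and 0 had an unadjusted limma p under 0.05. DESeq2 and edgeR called 0 too. Over all tested genes limma called 0.280% higher and 0.0852% lower, and 10.2% and 11.1% passed unadjusted. At such shares, 0 of 5 genes says little. The catalytic set-7 had 173 and 149 normalized counts in the ∆pas-labelled libraries, against 184 and 145 in WT, and a log2 fold change of -0.03 ± 0.230 (SE), at a limma adjusted p of 0.964. For eed (NCU05300), whose product binds the methylated histone, and suz12 (NCU05460), a core subunit, the log2 fold changes were -0.20 and 0.27. The histone-binding subunit npf (NCU06679) had 594 and 512 in the ∆pas-labelled libraries, against 684 and 740 in WT, and a log2 fold change of -0.37 ± 0.169 (SE), at a limma adjusted p of 0.274. The median over the 5 was -0.20.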

How the data were processed

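Poly-A RNA of 2 strains labelled ∆pas and 2 WT strains was compared. The authors deposited normalized counts per gene, a signal that is never negative; all values (100%, within 0.01 reads) were whole multiples of 1 step per library, so reads were recovered by division. Bowtie2, DESeq2 and deepTools are named in the submitters' processing notes without a role; counter, annotation and genome build are not given in the sources used here. Another 4 columns of the table, 2 named for set7 and 2 for WT, match no sample of the series and were not used, and 4 summary entries, which took 12.1% to 22.0% of reads, were left out. Per the file headers, the authors' comparison tables hold log2 fold changes with SE, a Wald score, p-values, adjusted p-values and mean counts (a signal); they run WT over mutant, judged by set-7 in its own deletion, and their sign was turned.

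Values were fitted as log2(normalized count + 1) with limma 3.58.1 (R 4.3.3), with an intensity trend and group as the only term. The fit had 4.34 prior and 2 residual degrees of freedom. Tests were two-sided, and p-values were adjusted by Benjamini-Hochberg over all genes. The code of the fit was run on simulated counts with known changes and the same spread setting for every gene. That run checks the code and not the spread between these strains. With 2 libraries a group an exact permutation test cannot go below p = 0.333 and was not used. P-values measure the spread between strains with 1 culture each. edgeR 4.0.16 (quasi-likelihood) and DESeq2 1.42.0 on recovered reads, other pseudocounts, filters and scalings, and leaving out each library were alternatives. Gene order came from RefSeq (NC12, 9729 genes matched) and gave neighbours and ranks only; promoter sequences were not analysed here. Every gene of the range could be named, with full statistics for markers, called genes and the 5 highest and lowest fold changes. Likeness to NCU09491 over 4 libraries was not computed, as too few. Members and lists were chosen with earlier results of these data known. Limits of a count of 0 cover counting error only.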

Additional observations from a re-analysis of the deposited data

How the results depend on the processing

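The 2 genes of the range called higher became 4 with DESeq2, 4 at an adjusted p under 0.1, 1 without the intensity trend and 0 at an adjusted p under 0.01, and 0 to 4 when 1 library was left out. The 0 called lower became 2 with DESeq2, 2 at an adjusted p under 0.1 and 0 to 4 when 1 library was left out. Over all genes, 23 higher and 7 lower became 259 and 347 with DESeq2, 15 and 3 with all genes that had any read, and 7 and 0 without the trend. Median ratio scaling gave 27 higher and 11 lower. Leaving out 1 library gave 0 to 518 higher and 0 to 585 lower: the 0 came without either WT replicate, and the 518 and 585 without ∆pas replicate 1, where the lone library labelled ∆pas is assumed to vary like WT. The same assumption holds without ∆pas replicate 2, where far fewer genes were called in either direction. The cause of the difference between these runs was not tested. The median over the range stayed between 0.02 and 0.16 under every alternative run. For 10 named genes under 13 alternatives, 0 of 130 fold changes turned sign, while some lost a call and others gained one. These 10 genes were named for the highest and lowest fold changes, and their groups do not overlap. Leaving out 1 library could therefore not turn a sign, and the count of 0 is no support for them. NCU09490 was called with a pseudocount of 5 (log2 fold change 2.41, limma adjusted p = 0.0468), with median ratio scaling (2.84, limma adjusted p = 0.0495) and without ∆pas replicate 1 (3.05, limma adjusted p = 0.0186). Without ∆pas replicate 1 gh13-3 (1.62, limma adjusted p = 0.0256), NCU09489 (-2.44, limma adjusted p = 0.0242) and aac (-1.16, limma adjusted p = 0.0145) were called too. No paired analysis was possible because the labels give strain names and no replicate numbers.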
